A study of Mus musculus with 36 samples.

Results

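The ligands and receptors that steer growing axons were examined in neural stem cell (NSC) cultures of the fetal mouse dorsal telencephalon and in the extracellular vesicles (EVs) that those cultures secreted. Members were all genes whose symbols belong to the Eph, ephrin, semaphorin, plexin, neuropilin, Robo, Slit, netrin, Unc5 and Dcc families. The symbols of 70 genes in the count files matched, and 1 of them, Plxna4os1, an RNA from the opposite strand of Plxna4, was left out, so that 69 members of 40205 listed genes were described. They comprised 35 ligands and 34 receptors, counting semaphorins as ligands, and each of the 69 had at least 1 count in some library.

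Cultures were grown as neurospheres, floating clusters of dividing cells, from fetuses at gestational day 12.5 that the labels give as C57BL/6J and WT, and whose strain the study's methods name as C57BL/6J (Ai14), a line with a silent fluorescent reporter allele. In each of 3 pregnancies (sets 3, 4 and 5) tissue was pooled by sex, giving 6 cultures, and every culture was kept for 5 days without ethanol (0 mg/dL, control), at a moderate dose (120 mg/dL) or at a high dose (320 mg/dL). EVs were collected from the medium, so 1 EV and 1 cell library were made per culture at each dose, or 36 libraries in 12 conditions of 3. The 3 doses of a culture came from the same pooled tissue, each culture is a mixture of fetuses, and cells expanded in growth medium are not a whole cortex.

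These families work as paired signals. Ephrins on one cell are read by Eph receptors on another, secreted class 3 semaphorins are read by neuropilins together with class A plexins, membrane-bound semaphorins are read mostly by plexins directly, Slits are read chiefly by Robo1 and Robo2, and netrins are read by Dcc (attraction) and the Unc5 family (repulsion). In the fetal cortex the same molecules also act on dividing progenitors and migrating neurons, and none of them is used by axons alone.

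The libraries differed in depth by location. Totals ran from 0.959 to 5.51 M counts (M for mega) in EVs and from 26.6 to 55.3 M in cells, and 6 EV libraries held under 2 M (all 3 from the set 4 female culture, the control of the set 3 female culture, and both ethanol doses of the set 3 male culture). Of the 69 members, 24 had a median EV count under 10 and 5 a median cell count under 10. Of 10 NSC markers, Vim, Slc1a3 and Fabp7 had the highest levels in cells, with medians of 1164, 888.8 and 718.1 counts per M (CPM), whereas Sox2, a defining gene of these cells, was at 0 in all 36 libraries. Protein-coding genes lying wholly inside other genes were at 0 in 504 of 1005 cases (50.1%), against 509 of 10553 (4.82%) for genes without any overlap, so counts of members that overlap other genes were taken as uncertain. Summed levels of 3 intermediate progenitor markers (Eomes, Neurog2, Neurod1) were 0.312 to 1.86 CPM in cells and those of 5 microglial markers 0.305 to 0.605 CPM. Of 5 genes of the oligodendrocyte lineage, Olig1 (median 255.0 CPM) and Olig2 (88.4 CPM) were well detected in cells. The other medians were lower, at 13.9 (Pdgfra), 1.48 (Mbp) and 0.974 CPM (Sox10). Summed levels in cells were 479.2 to 1026 CPM for 8 neuron markers, of which Map2 had a median of 587.0, and 19.6 to 246.8 CPM for 4 astrocyte markers.

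Sequences are shown first for the Slit and Robo families, because Slit2 and Slit3 were among the members with higher levels in EVs than in cells and both genes carry a copy of the same microRNA, miR-218, in an intron. The hairpins lie at chr5:48381284-48381393 in Slit2 and chr11:35507643-35507752 in Slit3, both on the plus strand of GRCm39. The mature strand is identical from both genes, and its bases 2 to 8, the seed that pairs with target mRNAs, are in capitals (RefSeq, from its GRCm38.p6 table):
mmu-miR-218-5p: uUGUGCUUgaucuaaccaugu

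The 7 bases complementary to this seed, AAGCACA, were found on the mRNA strand in the 3′ UTR of 20 of 69 members (29.0%), against 3121 of 20708 protein-coding genes (15.1%). The members' 3′ UTRs were longer, with a median of 1728 bases against 1084, and the effect of that length was not tested. Robo1 and Robo2, the receptors that read Slits, and Robo3, which in mammals binds Slits poorly, each had a match, and Robo4 had none. The first match of each is shown with its surroundings, the match in capitals, from chr16:72842228-72842249 (plus strand), chr16:73692240-73692261 (minus strand) and chr9:37327534-37327555 (minus strand) of GRCm39:
Robo1: ggttttaaAAGCACAatcacta
Robo2: ttggtgatAAGCACAaatctct
Robo3: actcactgAAGCACActgtcta

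A match is a description of the sequence and no measured target. The 2 hairpins were listed at 0 counts in all 36 libraries, and mature miRNAs were not measured by these files.

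Levels in cells differed widely between members. Levels between genes are given as median CPM per kilobase of merged exons. Ntn3, a netrin, was highest at 61.1 CPM per kb, but 31.2% of its span overlaps Tbc1d24, and Sema6d, a membrane-bound semaphorin that binds plexins, followed at 16.3 CPM per kb. Ntn1, the classical attractant netrin, stood at 12, and Sema6a, another membrane-bound semaphorin, at 10.9 CPM per kb. Plxnb2, a receptor of class 4 semaphorins, reached 8.21, and Dcc, the attractive netrin receptor, 7.85 CPM per kb. The leading members of the other families were Efnb2 among ephrins (5), Epha5 among Eph receptors (4.85), Robo2 among Robo receptors (4.36), Nrp1 among neuropilins (3.21) and Slit1 among Slits (0.965 CPM per kb). The feature type used in counting is not given in the sources used here, so a level per kilobase of exons would be too high for long genes if intronic reads had been counted.

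The first question was which guidance mRNAs were relatively more or less abundant in EVs than in the cells that released them. Members were spread to both sides, and members of the same family often differed in opposite directions. Of the 69 members 62 had enough counts to be tested (edgeR quasi-likelihood test with Benjamini-Hochberg adjustment over all genes, terms for sex and dose, 18 EV against 18 cell libraries). Adjusted p was under 0.05 for 47 of 62 (75.8%), beside 80.5% of all 15281 genes tested. By direction, 21 members were higher in EVs and 26 lower, beside 38.4% and 42.2% of all genes. The median log2 fold change, EV over cell, was -0.13 for the members and -0.08 for all genes. The 18 libraries of a location came from 6 cultures, and when each culture's libraries were added up 18 members were higher and 27 lower. Scaled to library totals, the median of all genes moved to -0.88, and 15 members were higher and 41 lower. The shares of all genes called in these alternatives are not given. The values below are relative to the bulk of the transcriptome. The 7 untested members, with too few counts, were Efna1, Ntn5, Robo4, Sema3b, Sema3f, Sema3g and Sema4f, and Ntn5, which lies wholly inside another gene, had almost no counts. EVs and cells differ in how much RNA they hold, and these relative counts do not give the absolute amount of an mRNA per vesicle or per cell.

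**Figure D1:**
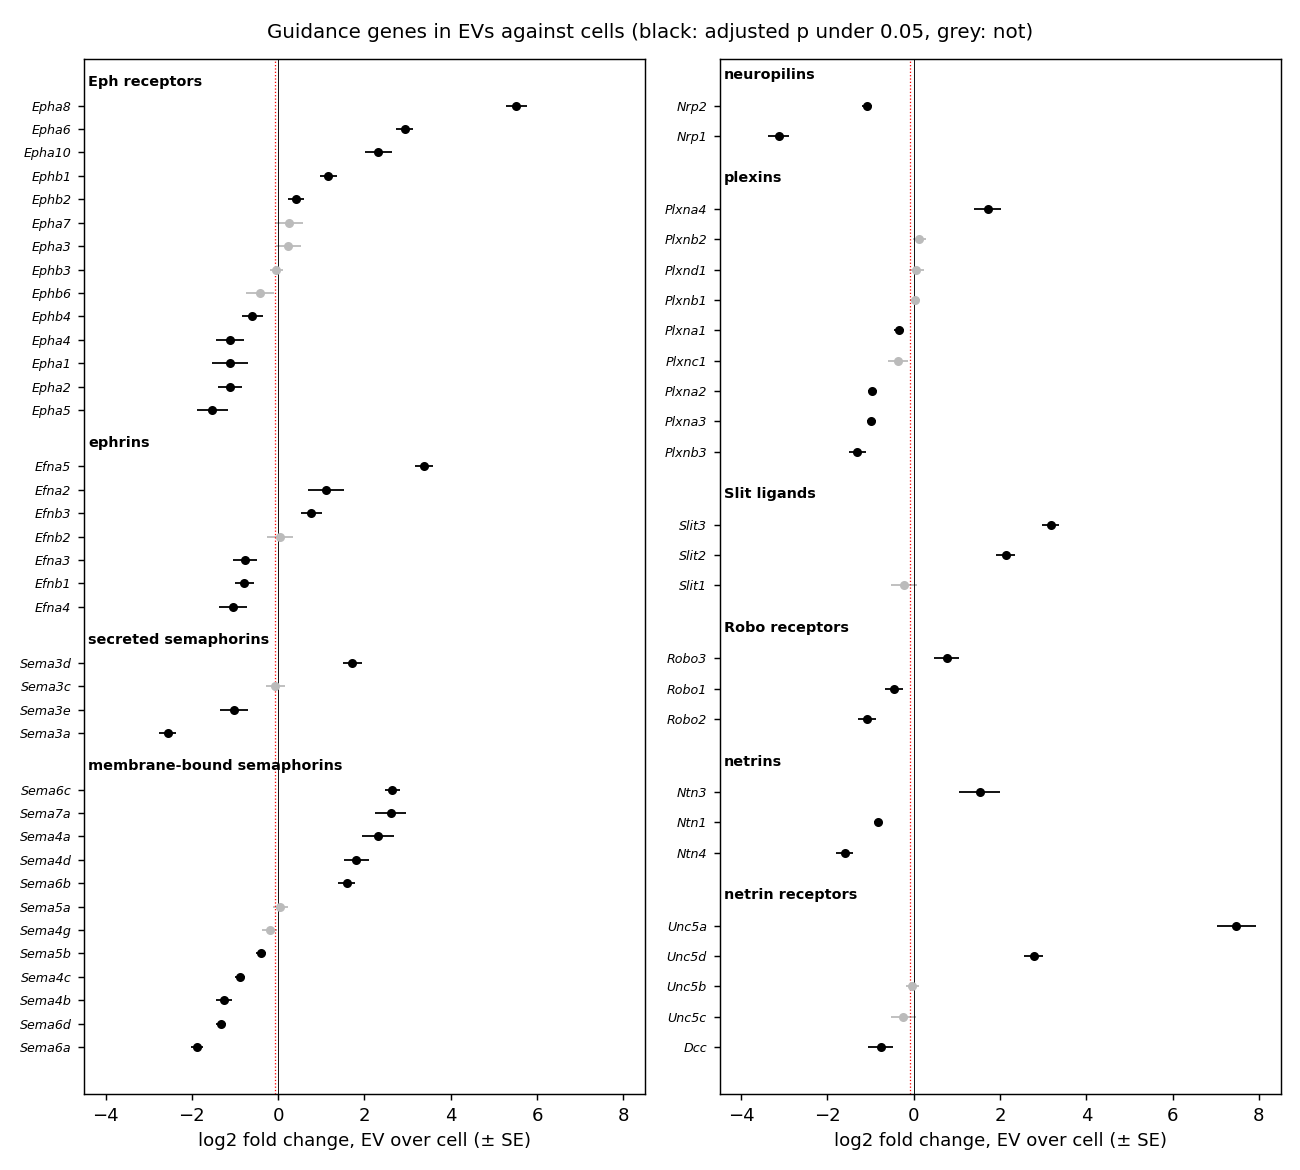
Log2 fold change of EVs over cells with its standard error for the 62 tested members by family, where black points have an adjusted p under 0.05 and the dotted line is the median of all genes (-0.08). The values run from -3.13 (Nrp1) to 7.48 (Unc5a), and most families have members on both sides.

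Netrin receptors held the largest difference. Unc5a, the receptor for repulsion by netrin (chr13:55096518-55153833, plus strand, GRCm39), ranged from 2.28 to 6.22 CPM in the 18 cell libraries, with a median of 3.71, and from 78.3 to 2932 CPM in the 18 EV libraries, with a median of 460.8. The ranges did not overlap and EVs were higher in 6 of 6 cultures, by 7.48 ± 0.45 (SE) on the log2 scale, at an adjusted p of 4.1e-17. The EV level depended on the culture: means over the 3 doses were 136.2 CPM in the set 4 female culture and 2311 in the set 5 male culture, while means in cells were 3.95 and 2.95 CPM. Unc5d, a further member of the repulsive family, was also higher in EVs, with medians of 12.6 against 2.23 CPM and a log2 fold change of 2.78 ± 0.22 (adjusted p 9.3e-14). Unc5b (-0.03 ± 0.16) and Unc5c (-0.24 ± 0.29) did not pass. Dcc was lower in EVs by 0.77 on the log2 scale (SE 0.29, adjusted p 0.0167), but in 4 of 6 cultures and with overlapping ranges (25 to 221.5 CPM in EVs, 19.9 to 265.4 in cells). The Dcc call was lost without set 4 (log2 fold change -0.65) and without set 5 (-0.64).

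The netrins themselves had no common direction. Ntn1 was lower in EVs in 6 of 6 cultures (log2 fold change -0.83 ± 0.09, adjusted p 8.4e-11), at 32.1 to 61.4 CPM against 55.7 to 106.0 in cells. Ntn4, a netrin of basement membranes, fell in the same way (-1.60 ± 0.20, adjusted p 6.3e-09), with medians of 9.73 and 26.5 CPM. Ntn3 was called higher in EVs (1.53 ± 0.47, adjusted p 0.00332), but only 3 of 6 cultures had a higher mean there and 1 library, the set 4 female culture at 320 mg/dL, reached 10917 CPM against a median of 369.0. With matched EV and cell libraries as a block the Ntn3 value was 0.43 (adjusted p 0.421), and without the 6 EV libraries under 2 M counts it was -0.05.

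Of the Slits 2 of 3 were higher in EVs, and of the 3 tested Robo receptors 2 were lower and 1 higher. Slit3 (chr11:35011789-35602786) ranged from 0.869 to 3.05 CPM in cells and from 4.21 to 42.3 CPM in EVs, without overlap, and was higher in EVs in 6 of 6 cultures (log2 fold change 3.17 ± 0.20, adjusted p 1.8e-16). Slit2 (chr5:48140480-48465075) was also higher (2.13 ± 0.22, adjusted p 7.7e-11), with medians of 8.85 against 2.01 CPM. Slit1 did not pass (-0.23 ± 0.30, adjusted p 0.482). Robo2 was lower in EVs (-1.09 ± 0.21, adjusted p 1.8e-05), with medians of 45.4 and 103.7 CPM. Robo1 was also lower (-0.46 ± 0.20, adjusted p 0.0313), although the call was lost with median-of-ratios scaling (-0.38) and without set 5 (-0.19). Robo3, a receptor of commissural axons, was higher (0.76 ± 0.28, adjusted p 0.0119) from few counts, with a median of 1.5 reads per EV library. It was lost with library totals (-0.08) and without set 5 (0.36).

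Eph receptors were divided 5 to 5. Epha8 (chr4:136656730-136684202), an EphA receptor known from the midbrain, was at 0.084 to 0.461 CPM in cells (median 9.5 reads) and at 1.69 to 23 CPM in EVs (median 22 reads). The 18 EV values all lay above the 18 cell values, with a log2 fold change of 5.52 ± 0.25 (adjusted p 1.3e-20). Its cell levels lay below the count filter, so Epha8 was tested only through its EV libraries. The direction and p of Epha8 are therefore not independent of the filter. Epha6 (2.93 ± 0.20, adjusted p 6.5e-16) was likewise without overlap, at 10.3 to 82.9 CPM in EVs against 2.26 to 7.06 in cells. Epha10 (2.32), Ephb1 (1.16) and Ephb2 (0.41) were the other receptors higher in EVs, although Ephb1 lost its call with library totals (0.26) and Ephb2 turned to a called decrease with library totals and lost its call without the 6 shallow EV libraries (0.12). Epha10, at a cell median of 0.403 CPM, also passed the count filter mostly through EV libraries. Epha5, the most abundant Eph receptor of the cells, was lower in EVs in 6 of 6 cultures (-1.53 ± 0.36, adjusted p 0.000241), with medians of 40.4 and 100.4 CPM. Epha1, Epha2, Epha4 and Ephb4 were lower as well, by 0.60 to 1.12 on the log2 scale. Epha1 overlaps other genes over 47.9% of its span, and its call was lost without set 4 (-1.06) and without set 5 (-0.18). Without set 5 the calls of Epha2 (-0.60), Epha4 (-0.88) and Ephb2 (0.41) were lost too, and without set 3 that of Ephb4 (-0.00).

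Of the 7 tested ephrins 3 were higher in EVs and 3 lower. Efna5 (chr17:62909956-63188312), a membrane-anchored ephrin that repels EphA-bearing axons, was at 1.68 to 5.85 CPM in cells and at 16.6 to 98.8 CPM in EVs. The ranges did not overlap, and the log2 fold change was 3.38 ± 0.20 (adjusted p 1.7e-17) with 6 of 6 cultures higher in EVs. Efna2 (1.11) and Efnb3 (0.77) were higher in 3 of 6 cultures by their means and rested on medians of 6 and 4 reads per EV library. With matched EV and cell libraries as a block Efna2 was at 0.55 (adjusted p 0.17), and its call was also lost without set 4 (1.04) and without set 5 (0.58). The Efnb3 call was lost without set 3 (0.58). Efna4 (-1.04), Efnb1 (-0.79) and Efna3 (-0.76) were lower, the last losing its call without set 3 (-0.59) and overlapping another gene over 42.1% of its span. Efnb2, the most abundant ephrin of the cells, did not pass (0.05 ± 0.30), and without the 6 shallow EV libraries it was lower in EVs at -1.13 (adjusted p 3.4e-07).

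Of the 4 tested class 3 semaphorins 2 were lower in EVs, 1 was higher and 1, Sema3c, did not pass (-0.07 ± 0.22), whereas 5 of 6 subunits of their receptors were lower. DESeq2, which tested all 7 class 3 semaphorins, called 3 higher and 2 lower. Sema3a (chr5:13175288-13653578), the founding secreted repellent, ranged from 57.5 to 202.2 CPM in cells and from 8.19 to 37.8 in EVs, again without overlap (log2 fold change -2.56 ± 0.19, adjusted p 1.8e-14). Nrp1 (chr8:129085085-129231082), its obligate co-receptor, ranged from 19.5 to 129.8 CPM in cells and from 1.65 to 11.8 in EVs (-3.13 ± 0.24, adjusted p 2.7e-14), with the caution that 62.2% of its span overlaps other annotated genes. Nrp2 was lower (-1.09 ± 0.12) without overlap of the ranges. The class A plexins Plxna2 (-0.96, with 51.2% of its span overlapped by another gene), Plxna3 (-0.98) and Plxna1 (-0.34) were lower, and the 6 receptor subunits of this pathway had a median of -0.97. The sixth, Plxna4, was higher (1.71 ± 0.31, adjusted p 6.1e-06), at means of 15.8 to 146.4 CPM in the 6 EV cultures, and 5 of 6 cultures were higher. Among ligands Sema3e was lower (-1.03), a call lost without set 4 (-0.76), and Sema3d was higher (1.72 ± 0.22) in 6 of 6 cultures. Plxna1 was not called without set 5 (-0.05), in control libraries only (-0.44) or after thinning to the smallest library (0.09).

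The 12 tested membrane-bound semaphorins were divided 5 higher, 5 lower and 2 not passing. The higher ones were Sema6c (2.65 ± 0.18, 5.52 to 26.5 CPM in EVs against 1 to 3.91 in cells), Sema7a, which is anchored to the membrane by lipid and acts through integrins (2.61 ± 0.36), Sema4a (2.32), Sema4d, a ligand of Plxnb1 (1.81), and Sema6b (1.59). Sema4a, at a cell median of 0.367 CPM, passed the count filter mostly through EV libraries. Sema6d, the most abundant semaphorin of the cells per length, was lower without overlap of the ranges (62.5 to 104.6 CPM in EVs, 106.3 to 362.9 in cells, log2 fold change -1.33 ± 0.12, adjusted p 3.6e-12). Sema6a was lower by 1.88 (SE 0.15, adjusted p 5.3e-14), with 1 cell library, the set 3 male control at 47.1 CPM, just below the highest EV library at 48.8 CPM. Sema4b (-1.25), Sema4c (-0.89) and Sema5b (-0.39) were also lower, the last losing its call after thinning (-0.02) and in control libraries only (-0.42). Of the other plexins, Plxnb3, a receptor of Sema5a, was lower (-1.31 ± 0.20, adjusted p 2.6e-07), and Plxnb1 (0.03), Plxnb2 (0.13), Plxnd1 (0.06) and Plxnc1 (-0.36) did not pass. With the pair as a block Plxnc1 was at -0.34 and passed (adjusted p 0.0354).

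**Figure D2:**
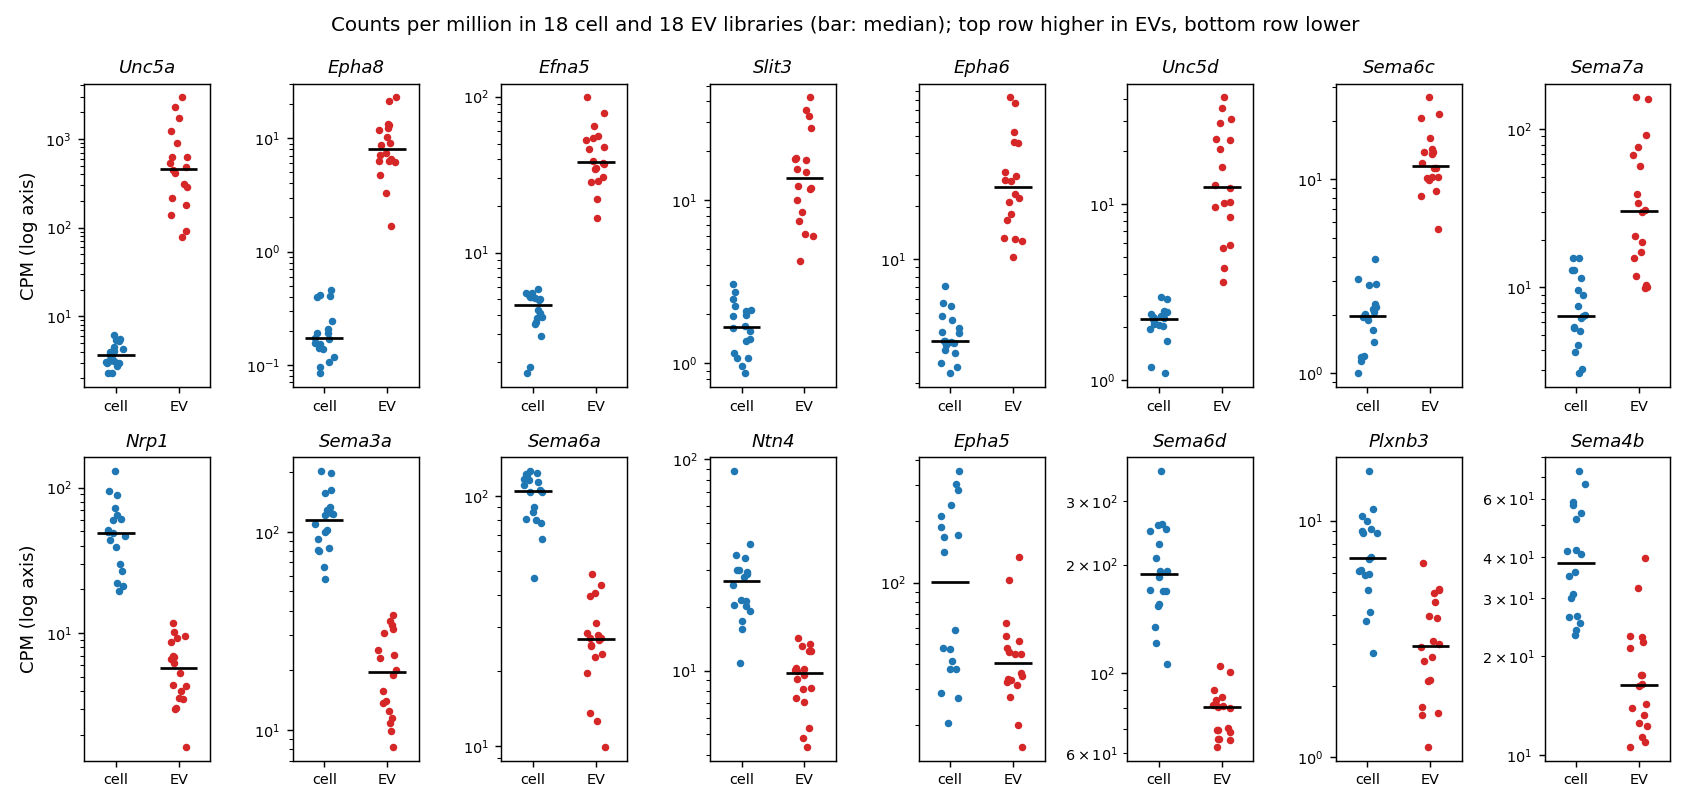
CPM on a log axis in each of 18 cell and 18 EV libraries for the 8 members with the largest difference in each direction that differed one way in all 6 cultures. Unc5a, Epha8, Efna5, Slit3, Epha6, Unc5d and Sema6c in the top row and Nrp1, Sema3a and Sema6d in the bottom row do not overlap between EVs and cells.

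In all, 12 of the 62 tested members had EV and cell ranges that did not overlap, 7 with EVs higher and 5 lower, beside 23.8% of all genes tested. A set of 29 members, 14 higher and 15 lower, kept its call and direction in every alternative analysis except thinning to the smallest library, in which many were not tested. The same share over all genes is not given, so the number 29 is no result about guidance genes as a set. Unc5a, Efna5, Slit3, Nrp1 and Sema3a were among the 29. Epha8 and Epha10 were too, but they passed the count filter only or mostly through EV libraries. Their direction is therefore not independent of the filter, and Epha8 is also among the 7 members without overlap. Markers of cell types moved too, in both directions. The summed level of the 5 endothelial and pericyte markers ranged from 2.41 to 23.7 CPM in EVs and from 1.28 to 2.74 in cells. That of 4 fibroblast markers ranged from 2.18 to 23.7 and from 0.419 to 2.79, and that of the microglial markers from 0 to 11.7 CPM in EVs. Pecam1 (1.68) and Kdr (1.83) of the endothelial list, Col1a1 (2.37) of the fibroblast list and Csf1r (2.05) of the microglial list were called higher in EVs on the log2 scale, from EV medians of 1.48 to 2.34 CPM. Kdr, Col1a1 and Csf1r, with cell medians of 0.435, 0.389 and 0.329 CPM, passed the count filter mostly through EV libraries. Their direction is therefore not independent of the filter. The other 10 markers of these lists had too few counts to be tested, and P2ry12 was at 0 in every library, which need not mean that its RNA was absent. The part of such RNA in the results was not tested. Of the tested markers in other lists, 0 of 3 for astrocytes, 1 of 7 for neurons and 2 of 9 for NSCs were higher in EVs. In the same order 3, 4 and 6 were lower. Of 5 genes of the oligodendrocyte lineage 2 were higher and 1 lower, and of 2 tested ventral and interneuron markers 1 was higher and 1 lower.

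Genes that carry guidance signals inside the cell were described from lists. Of 50 intracellular effectors 49 were tested, 19 were higher and 22 lower in EVs, beside 38.4% and 42.2% of all genes tested, and their median was -0.31. Ablim1, an actin-binding protein of the netrin pathway (3.02 ± 0.12), Enah, which extends actin filaments (2.33 ± 0.14), Dpysl3, a collapsin response mediator (2.22 ± 0.33), and the kinases Abl2 (1.78) and Abl1 (1.37) were higher. Vav3, an exchange factor downstream of Eph receptors (-2.37 ± 0.17), Rasa1 (-2.13 ± 0.10), Srgap2, a Robo effector (-2.08 ± 0.19), and the GTPase Cdc42 (-1.65 ± 0.09) were lower. Of 25 other guidance cues and adhesion receptors 21 were tested, 4 were higher and 11 lower with a median of -0.66, among them Nrcam (-2.63 ± 0.13), an adhesion molecule that partners neuropilins, and Met (-2.77 ± 0.32). With library totals, where the median of all genes was -0.88, the counts were 10 higher and 30 lower for effectors and 0 and 17 for the other cues.

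Within cells, the culture accounted for most of the spread between libraries. Across the 65 members tested in cells, the median share of the variance of log2 CPM lying between the 6 cultures was 77.2%, and between the 3 doses 1.57%. Over all 17792 genes tested the medians were 73.7% and 2.65%. In EVs the shares were 68.8% and 3.99% for 52 members, and 56.1% and 6.14% for 11880 genes. A share of the variance between 6 groups of 3 is above 0 even without any true difference, so the shares are given as descriptions.

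Epha5 varied most. Its mean in cells over the 3 doses was 25.5 CPM in the set 3 male culture, 41 in the set 3 female and 49.3 in the set 4 female culture, and 160.3, 212.6 and 314.0 CPM in the set 5 male, set 4 male and set 5 female cultures, which is a 12.3-fold range. The culture held 98.5% of its variance. Slit1 varied 8.42-fold (3.19 to 26.9 CPM) and Dcc 8.04-fold (30.6 to 246.4 CPM), whereas Plxnb2 varied 1.33-fold (54.8 to 72.8 CPM) and Ntn1 1.43-fold (63.7 to 91.1 CPM). Ntn3 was lowest in the set 3 male culture (107.3 CPM) and highest in the set 5 female culture (646.9 CPM). In EVs the order of the cultures was not the same: the set 4 female culture, whose 3 libraries are all shallow, was highest for Dcc (147.5 CPM) and Robo2 (96.3 CPM), although its cells held 86.2 and 74.5 CPM.

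**Figure D3:**
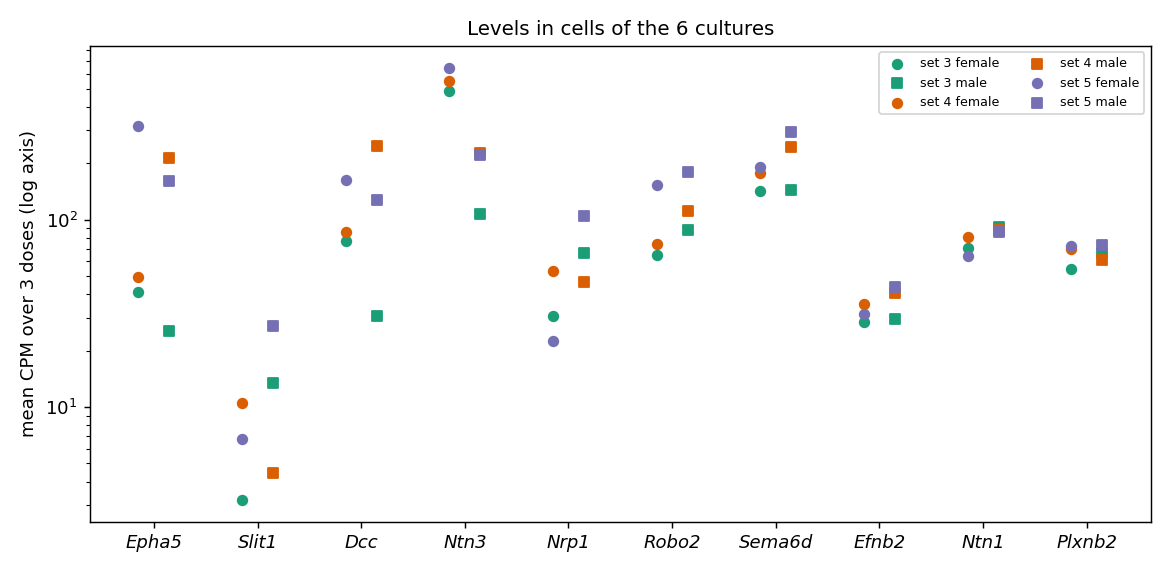
Mean CPM over 3 doses on a log axis in the cells of the 6 cultures, with the colour showing the pregnancy (set), circles for female and squares for male cultures. Epha5, Slit1 and Dcc span 8.04-fold to 12.3-fold, and Ntn1 and Plxnb2 under 1.5-fold.

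The second question was whether ethanol changed these mRNAs. No member passed at either dose in either location (edgeR quasi-likelihood test with the culture as a block). In EVs 0 of 52 members passed at 120 mg/dL and 0 of 52 at 320 mg/dL, beside 0.00842% and 0.0842% of all genes, and in cells 0 of 65 at both doses, beside 0% and 0.0393%. Unadjusted p was under 0.05 for 5 members at each dose in EVs (9.62%, 4 of them positive at each), against 6.27% of all genes at 120 and 11.9% at 320 mg/dL. In cells it was under 0.05 for 2 members (3.08%) at 120 and 4 (6.15%) at 320 mg/dL, against 2.49% and 8.57% of all genes. DESeq2 called 0 members at 120 mg/dL in both locations and 1 at 320 mg/dL in each, Epha5 in EVs and Epha3 in cells. Both doses were compared with the same control libraries. Of the effectors and of the other guidance genes 0 passed in any of these comparisons.

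The values with the smallest unadjusted p in EVs were small increases that did not pass. Sema6a (chr18:47368665-47502216) stood at 12.6 to 27.1 CPM in the 6 control EV libraries (median 24), 9.92 to 44.1 at 120 mg/dL (median 28) and 13.6 to 48.8 at 320 mg/dL (median 29). The log2 fold change was 0.36 ± 0.12 at 120 mg/dL (adjusted p 0.768, positive in 5 of 6 cultures) and 0.42 ± 0.12 at 320 mg/dL (adjusted p 0.163, positive in 6 of 6 cultures). All 3 doses overlapped, because the cultures lay further apart than the doses. Epha5 was at medians of 34.5, 39.6 and 45.2 CPM over the rising doses, with log2 fold changes of 0.39 ± 0.15 and 0.48 ± 0.15 (adjusted p 0.792 and 0.192), positive in 5 of 6 cultures at each dose. Nrp1 was at medians of 3.78, 5.30 and 7.86 CPM, and 0.69 ± 0.21 at 320 mg/dL (adjusted p 0.189, positive in 6 of 6 cultures). Unc5d was the third by p at 120 mg/dL (0.68 ± 0.27, adjusted p 0.792), with medians of 9.91 and 18 CPM. Without the 6 shallow EV libraries Sema6a was at 0.48 and 0.51, Epha5 at 0.42 and 0.59, and Nrp1 at 0.83, and again 0 members passed.

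In cells the smallest unadjusted p at 320 mg/dL belonged to Epha3, an EphA receptor. Its control values ranged from 3.19 to 9.76 CPM (median 5.02) and its values at 320 mg/dL from 3.69 to 13.4 (median 6.98). The log2 fold change was 0.35 ± 0.09 (adjusted p 0.265), positive in 6 of 6 cultures. Plxna4 (0.53 ± 0.17, adjusted p 0.367) was positive in 5 of 6 cultures and Efnb3 (-0.37 ± 0.12, adjusted p 0.401) negative in 6 of 6. At 120 mg/dL the first 3 were Epha8 (0.88 ± 0.35), Epha3 (0.20 ± 0.09) and Epha6 (0.29 ± 0.14), all with an adjusted p of 1, and Epha8 rested on levels under 0.5 CPM.

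**Figure D4:**
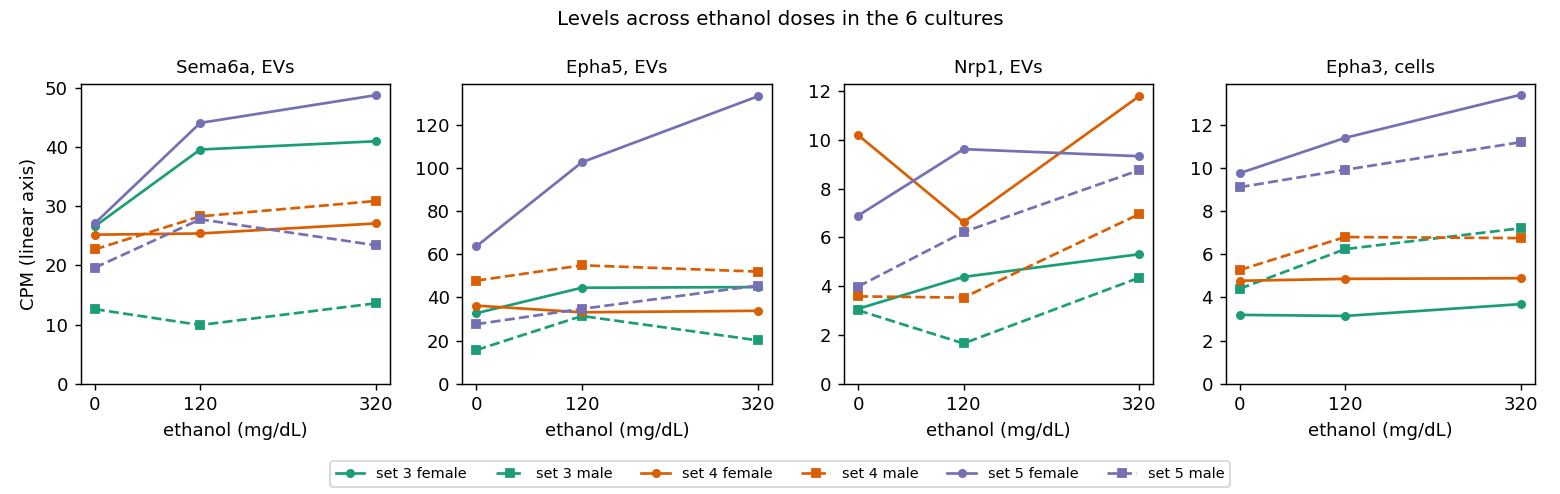
CPM on a linear axis against ethanol dose (mg/dL), with 1 line per culture, for Sema6a, Epha5 and Nrp1 in EVs and Epha3 in cells. At 320 mg/dL Sema6a and Nrp1 in EVs and Epha3 in cells lie above their own control in 6 of 6 cultures and Epha5 in 5 of 6, and none of these differences passed the test.

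Whether ethanol moved the EV level relative to the cell level was tested as the difference between the EV and cell changes. Of 62 members 0 passed at 120 mg/dL and 0 at 320 mg/dL, beside 0% of all 15281 genes at each dose, and unadjusted p was under 0.05 for 2 (3.23%) and 3 members (4.84%), against 3.42% and 6.54% of all genes. DESeq2 also called 0 members at each dose. The lowest p belonged to Epha5 at both doses, with a log2 change in the ratio of 0.48 ± 0.19 and 0.52 ± 0.19 (adjusted p 1 and 0.625). At 320 mg/dL Nrp1 (0.54 ± 0.23) and Plxna4 (-0.67 ± 0.28) followed, and at 120 mg/dL Unc5d (0.67 ± 0.27) and Plxna3 (-0.44 ± 0.23).

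The third comparison was between female and male cultures. Counts were summed over the 3 doses of each culture, since those share a source, which left 3 female against 3 male sums with pregnancy as a block. In EVs 0 of 59 members passed, beside 0% of 14847 genes, and in cells 0 of 67, beside 0.0334% of 20972 genes. In EVs unadjusted p was nevertheless under 0.05 for 24 of 59 members (40.7%), against 20.7% of all genes, and 21 of the 24 were positive, that is, higher in females. The median log2 fold change, female over male, was 0.38 for members and 0.04 for all genes. DESeq2 called 0 members in EVs. In cells unadjusted p was under 0.05 for 7 of 67 members (10.4%), against 7.78% of all genes.

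Dcc had the smallest p in EVs. It was at 54.4, 147.5 and 120.6 CPM in the female cultures of sets 3, 4 and 5 and at 31.5, 57.3 and 52.8 CPM in the male cultures (means over doses), a log2 fold change of 1.18 ± 0.19 (adjusted p 0.199). Sema3a was at 18.4, 32.3 and 32.9 CPM against 11.1, 13.6 and 17.7 (1.05 ± 0.18, adjusted p 0.199), and Slit3 at 9.34, 31.8 and 25.9 against 8.36, 9.19 and 15.2 (1.16 ± 0.26, adjusted p 0.199). In each of the 3 pregnancies the female culture was the higher one for all 3 genes. In cells Dcc had means of 76.7, 86.2 and 162.5 CPM in female and 30.6, 246.4 and 127.4 CPM in male cultures, with the female culture lower in set 4. Sema3a in cells was at 68.2, 84.7 and 187.7 CPM against 117.2, 114.3 and 134.9. Slit3 in cells was higher in the female culture of each pregnancy, at 2.19, 1.90 and 2.49 CPM against 1.56, 1.31 and 1.04. The EV and cell differences by sex were not tested against each other.

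The EV values by sex went with gene length. Across the 59 members Spearman's rho between the log2 fold change and the gene span was 0.55, against 0.35 across 13964 genes, given as descriptions since all genes share the same libraries. The median was 1.04 for the 18 members that span over 200 kb and 0.14 for the 41 others, and over all genes 0.64 for the 1055 long ones and -0.02 for the rest. In cells the rho was -0.20 for members and -0.08 for all genes. The median span was 51 kb for the 69 members and 34.2 kb for the 13964 genes, and the longest members were Robo2 (1556 kb), Dcc (1097 kb), Epha6 (952.0 kb) and Robo1 (739.2 kb). Depth also differed by sex and was lower in females, with median totals of 2.59 M counts in female and 4.02 M in male EV libraries. Of the 6 shallow libraries 4 were female. With single libraries in the fit, the median log2 fold change was 0.68 over 48 members with all 18 EV libraries and 0.44 over 51 members without those 6, and the number of members called went from 17 to 1 (Efnb1). Unadjusted p in these fits was under 0.05 for 27 of 48 members (56.2%, against 31.1% of all genes) and for 24 of 51. The share of all genes is not given for the second fit, so its 24 members and 1 call are no result about guidance genes as a set. The second fit has fewer libraries and lacks the whole set 4 female culture. How far the loss of these libraries changed the number of calls was not tested. The part of depth in the result was otherwise not tested.

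**Figure D5:**
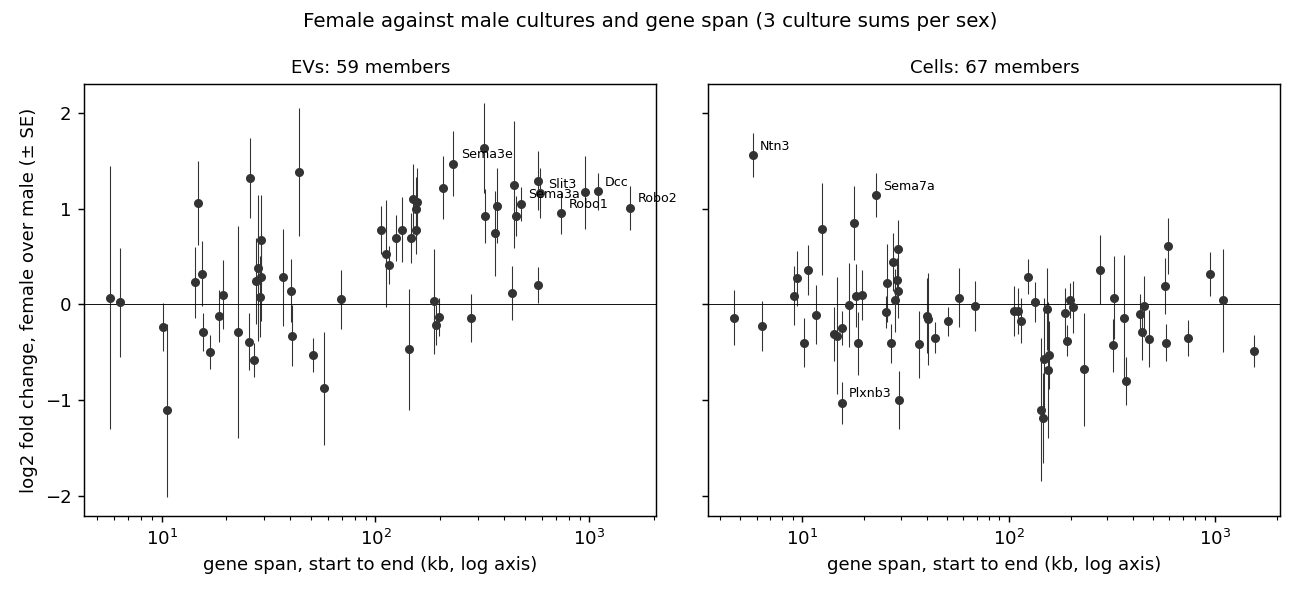
Log2 fold change of female over male cultures with its standard error against gene span on a log axis, in EVs (59 members) and in cells (67 members). In EVs the 18 members longer than 200 kb have a median of 1.04, and in cells a median of -0.12.

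Taken as single libraries, 9 female against 9 male, 17 of 48 members passed in EVs (35.4%), 16 of them higher in females, beside 11.1% of all genes, and 5 of 64 in cells (7.81%), beside 5.83%. These p-values are too small, because the 3 libraries of a culture are not independent. In EVs the list was led by Sema5a, a membrane-bound semaphorin (1.02 ± 0.21), Sema3a and Epha3 (1.68 ± 0.38), and only Plxnb1 was higher in males (-0.43). Without set 4, whose female EV libraries are all shallow, 7 members passed in the culture sums, 6 of them higher in females and Sema7a higher in males (-1.61). The share of all genes that passed in that smaller fit is not given, so the 7 are no result about guidance genes as a set.

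In cells the 3 members with the smallest p by sex were Ntn3, Sema7a and Plxnb3, and none passed. Ntn3 was at 484.8, 551.5 and 646.9 CPM in the female cultures and at 107.3, 227.7 and 220.8 CPM in the male cultures, a log2 fold change of 1.56 ± 0.23 (adjusted p 0.396). Every female library (341.8 to 777.9 CPM) lay above every male library (76.6 to 297.7 CPM). Sema7a was at 9.06, 11.3 and 13.3 CPM against 3.41, 6.09 and 5.01 (1.14 ± 0.23, adjusted p 0.438), also without overlap between the libraries of the sexes. Plxnb3, which is X-linked, was lower in female cells (-1.03 ± 0.22, adjusted p 0.449), at 2.74 to 6.86 CPM against 7.02 to 16.2. DESeq2 called these same 3 members in cells, with adjusted p of 0.00013, 0.00731 and 0.00748. In EVs Ntn3 had no such order, at 292.1, 4373 and 204.5 CPM in female and 1077, 173.3 and 546.6 CPM in male cultures.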

How the data were processed

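RNA was sequenced from 18 EV and 18 cell samples. Per the submitters' notes and the study's methods, the authors depleted ribosomal RNA, made stranded libraries, removed duplicates, trimmed reads with Trimmomatic, mapped them with STAR (mm39) and ran HTSeq to obtain gene counts. Deposited counts are whole and not normalized. The counting feature and strand setting are not given in the sources used here. No 2 of the 36 libraries were identical. The test of EVs against cells takes the 3 libraries of a culture as independent.

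Members and lists were chosen with earlier results of these data known. Genes were placed by symbol on GRCm39 with GENCODE. Counts were tested in R 4.3.3 with edgeR 4.0.16 (filterByExpr with minimum count 10 and minimum total 15, TMM scaling, quasi-likelihood F test, Benjamini-Hochberg adjusted p under 0.05 over all genes). EVs against cells had sex and dose as terms, ethanol with culture as a block, the EV:cell ratio with the library pair, location by culture and location by dose, and sex on counts summed over doses with pregnancy as a block. The SE is the log2 fold change divided by the square root of F. CPM are at TMM scale, and log2 CPM used a prior count of 1. Named members were the 8 largest differences in each direction that held in 6 of 6 cultures, the highest per length in each family, and the 3 with the smallest p where none passed. Others are named by family. Alternatives were DESeq2 1.42.0, other scalings, no filter, thinning, other blocks, control libraries alone, leaving out each pregnancy and, added after seeing the data, leaving out the 6 EV libraries under 2 M counts. The tests were tested on simulated data. Figures used Python 3.11.15 and matplotlib 3.10.9. Depth limits EV values, since 24 members had a median under 10 counts there.

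The set number marks a shared pregnancy, so it pairs samples. As a check, deviations from the condition mean were correlated. The median r was 0.0719 for matched EV and cell libraries (18 pairs), 0.715 and 0.621 for cell libraries at 120 and 320 mg/dL and their control, 0.191 and 0.21 for the same in EVs, and 0.106 in EVs and 0.376 in cells for females and males of a pregnancy.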

Additional observations from a re-analysis of the deposited data

Results flagged for a closer look

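Among 10 members named for ethanol, 60 groups of 6 libraries of a location and dose were searched for a library standing apart from the rest by Dixon's ratio on log2 CPM, which chance alone gives in about 1 of 20 groups, and 5 did. The set 4 female culture was at 0 CPM for Efnb3 in EVs at 120 mg/dL (others 1.36 to 6.61 CPM), from a shallow library, and at 175.4 CPM for Plxna4 in control EVs (others 17.4 to 38.9). The set 3 male culture was lowest for Sema6a in EVs at 120 mg/dL (9.92 CPM, others 25.4 to 44.1) and in control cells (47.1, others 103.4 to 122.2), and for Unc5d in cells at 320 mg/dL (1.09, others 2.05 to 2.47).

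In 2 cases all 3 female cultures moved one way at 120 mg/dL and all 3 male cultures the other, and the difference was not tested. The mean log2 change, female minus male, was -0.77 for Epha6 in EVs and -0.46 for Sema6a in cells.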

How the results depend on the processing

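For EVs against cells the 21 members higher and 26 lower became 12 and 12 of 30 tested after thinning to the smallest library, which tests fewer genes, while 41 were lower with library totals, 40 without a filter and 17 in control libraries only. With the replicate block of matched EV and cell libraries 19 were higher and 27 lower. With the replicate block of counts summed over doses 18 were higher and 27 lower of 66 tested, and 41 of these 45 calls were shared with the main fit. There Efnb3 (0.34), Epha1 (-1.14), Ephb2 (0.02) and Robo3 (0.43) also lost their calls. Without replicate 3, 4 or 5 the counts ranged from 18 to 19 higher and from 20 to 24 lower, and DESeq2 gave 26 and 25. Without the 6 shallow EV libraries 20 were higher and 29 lower. The shares of all genes called in these alternatives are not given, so the counts are no result about guidance genes as a set. The median of all genes moved as well, to -0.88 with library totals, 0.46 without a filter and 1.73 in DESeq2. Among the named members, values that turned and passed the other way were Efnb2 (-0.69 with library totals, -0.65 without a filter, -1.13 without the shallow libraries) and Plxnb2 (-0.64 and -0.49 in the first 2), which after thinning passed as higher in EVs (0.69 and 0.56), while Ntn3 lost its call and turned to -0.05 without the shallow libraries. The cause was not tested.

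For ethanol, no filter gave 1 member at 120 and 1 at 320 mg/dL in EVs, Efna2 both times (-1.69 and -1.54), whose control libraries had medians of 2.18 CPM and a highest value of 39.8 CPM, and DESeq2 gave 1 at 320 mg/dL in EVs and 1 in cells. The ratio stayed at 0 in all alternatives, as did ethanol without replicate 3, 4 or 5. By sex, 9 against 9 libraries gave 17 members in EVs and 5 in cells, no filter gave 7 in EVs, DESeq2 3 in cells, leaving out a pregnancy 0 to 7 in EVs, and leaving out the shallow libraries 1 in EVs. Apart from the fit of 9 against 9 libraries, the shares over all genes are not given for these alternatives. Among members tested in the main fits, blocks changed no other call beyond those given with the results. Depth limits EV calls for members with few reads.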

Other observations

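Some other genes of the guidance field were read at 0 in every library. Flrt1 and Flrt3, adhesion ligands of Unc5 receptors, had 0 CPM in all 36 libraries, and Islr2 (medians of 0.801 CPM in EVs and 0.0715 in cells) and Cntn2 (0.652 and 0.186) were too low to be tested. Because 50.1% of protein-coding genes wholly inside other genes were at 0, as was Sox2, a reading of 0 need not mean that the RNA was absent. Among the other cues, Ptprs, a receptor phosphatase that binds proteoglycans, was lower in EVs (-1.45 ± 0.10 on the log2 scale), at a median of 77.4 CPM against 224.9 CPM, while the related Ptprd was higher in EVs (1.10 ± 0.26). L1cam was higher in EVs (1.35 ± 0.35) from medians of 1.13 and 0.481 CPM, and its relative Nrcam was lower. At that cell level L1cam passed the count filter mostly through EV libraries, so its direction is not independent of the filter.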
